A study of Mus musculus with 6 samples.

Results

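The genes described here are the calmodulin-dependent protein kinases and the calcium-dependent cyclic nucleotide phosphodiesterases of the newborn mouse lens. They are Camk1, Camk1d, Camk2a, Camk2b, Camk2d, Camk2g, Camk4, Camkk2, Pde1a and Pde1c, 10 of the 12393 genes that a probe set of the array represents alone. Every probe set assigned to a single one of these symbols was taken, which gave 19 of 22626. Camk1d and Pde1c were picked because the study lists them as lower in Pax6 heterozygous lenses on these same arrays, so their genotype differences are given as a description and not as a test. RNA was measured on 6 Affymetrix arrays, 3 for each genotype, wild-type or Pax6 heterozygous, all at postnatal day 1, and each sample pooled the pair of lenses from a mouse. The wild-type mice had an NMRI background. The heterozygous mice were Pax6 lacZ/+, with lacZ in place of a copy of Pax6 in every cell, so that the loss is not confined to the lens. The values are signal intensities on the linear scale that the authors obtained by robust multichip average (RMA), which sets the arrays to a common scale and joins the probes of a probe set. A difference is the heterozygous log2 signal minus the wild-type one.

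Calmodulin is a small protein that changes shape when it binds calcium and then switches on other enzymes. Calmodulin kinases form a relay, in which the kinase kinase encoded by Camkk2 phosphorylates the type I enzymes (Camk1, Camk1d) and the type IV enzyme (Camk4), while the type II enzymes (Camk2a, Camk2b, Camk2d, Camk2g) assemble into large rings and phosphorylate themselves. The phosphodiesterases Pde1a and Pde1c break down cAMP and cGMP once calmodulin binds them, and so connect the calcium and cyclic nucleotide signals. In the lens, calcium is kept low, and a lasting rise is known to accompany cataract.

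Camk1d carried the largest genotype difference of the family, and its RefSeq start regions are shown for that reason. RefSeq gives 2 start regions for the gene in the mouse build GRCm38.p6, both on the minus strand of chromosome 2, each with 250 bases before and 50 after the start. The array does not tell which start the measured RNA came from. Capitals mark TAATTA, a core bound by homeodomain proteins, a class to which Pax6 belongs.
Camk1d, upstream start at chr2:5714713-5715012: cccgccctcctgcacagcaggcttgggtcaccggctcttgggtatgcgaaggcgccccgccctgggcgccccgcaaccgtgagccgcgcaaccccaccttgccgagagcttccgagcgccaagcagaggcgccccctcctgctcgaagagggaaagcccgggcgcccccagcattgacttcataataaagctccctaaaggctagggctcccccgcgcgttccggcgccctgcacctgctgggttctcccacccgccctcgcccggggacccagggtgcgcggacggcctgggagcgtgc
Camk1d, downstream start at chr2:5675997-5676296: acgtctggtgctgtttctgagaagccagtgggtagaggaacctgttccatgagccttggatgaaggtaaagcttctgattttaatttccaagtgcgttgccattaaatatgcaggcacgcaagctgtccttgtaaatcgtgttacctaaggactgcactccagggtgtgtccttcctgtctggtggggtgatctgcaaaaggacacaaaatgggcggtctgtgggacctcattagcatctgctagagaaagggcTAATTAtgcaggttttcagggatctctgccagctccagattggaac
The upstream region is 71.3% G and C and holds 29 CpG pairs, and the downstream region is 48.7% G and C with 5 CpG pairs. TAATTA, which reads the same on both strands, begins at base 5 after the downstream start and is not found in the upstream region. It is held by 5.29% of the 32851 RefSeq start regions of this length. TTCACGC, a core of paired domain sites that was searched on both strands, is held by 1.26% of them and by neither Camk1d region. Start regions were at hand for 7 of the 10 genes, 13 in all, and the downstream Camk1d region was the only 1 of the 13 with TAATTA. A match of letters is a description and not a binding site. The paper searched other genes with longer, degenerate Pax6 consensus sequences, which were not used here. A missing match to these short words therefore does not exclude a Pax6 site.

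The tissue had the signals of lens. All 8 measured lens fiber markers stood above background on every array, and their summed signal lay between 66130 and 78022 in wild-type and between 64668 and 75664 in heterozygous lenses. Of the lens epithelium markers, 4 of 5 did so, and Foxe3, a forkhead factor of the lens epithelium, did so on 2 arrays. Pax6, the targeted gene, read 1169, 1760 and 963 in the wild-type replicates 1 to 3 at its brightest probe set and 942, 1170 and 882 in the heterozygous ones. These ranges overlap, each heterozygous mouse read lower than the wild-type mouse of its number, and the log2 difference was −0.34 ± 0.24 (standard error). The other 4 Pax6 probe sets had differences from −0.69, at 1452526_a_at, to 0.19, at 1437816_at. Markers of neighboring tissues were also measured. The summed signal of 14 retinal neuron markers was 1096 to 1320 in wild-type and 1514 to 2241 in heterozygous lenses. Of these markers, 11 were above background on all arrays, although Rcvrn, the photoreceptor recoverin, was not above background on any array. With whole lenses on an array, fewer cells of a type and less RNA per cell cannot be told apart.

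Camk1d, Camkk2, Camk2d, Camk2g and Camk1 had RNA above background in newborn lens, each at a single probe set. Background was taken as the 95th percentile of 33 probe sets for olfactory receptors, genes that lens is not known to use and a guide chosen after values were seen, which lay between 11.4 and 15.9 on the 6 arrays. The 5 probe sets passed it on all 6 arrays. The other 14 had medians under 20 and passed it on 0 to 5 arrays. Among the type II kinases, the delta and gamma genes, which many tissues use, were thus above background, and the alpha and beta genes, best known from neurons, were not. Camk2a read 10.7 ± 0.737 and 10.3 ± 1.40 (SD, 3 wild-type and 3 heterozygous mice), and Camk2b read 12.0 ± 1.77 and 12.0 ± 2.25. The 3 probe sets of Camk4, a kinase found in the nucleus of neurons and T cells, had medians between 12.7 and 15.3. Pde1a read 10.6 ± 0.568 and 10.9 ± 0.590. A probe set at background can reflect probes that bind poorly as well as RNA that is scarce, and signals of different probe sets are not compared as amounts.

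**Figure D1:**
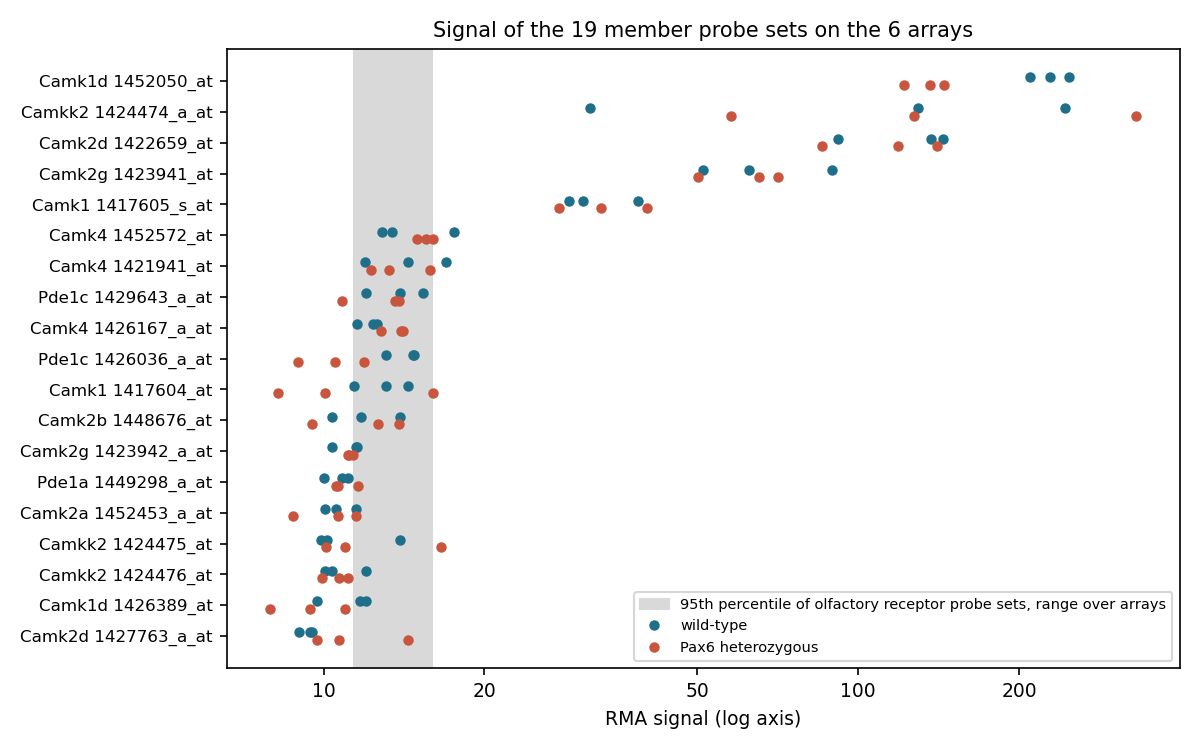
Signal of the 19 probe sets of calmodulin kinases and calcium-dependent phosphodiesterases on the 6 arrays (log axis), ordered by median, with 3 wild-type and 3 Pax6 heterozygous points per row. The grey band spans the background of the 6 arrays, 11.4 to 15.9, and 5 probe sets lie to its right on every array.

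Camk1d, a type I kinase also called CaM kinase I delta, had lower signals in all 3 Pax6 heterozygous mice than in any wild-type mouse. At the probe set 1452050_at, the one the study lists, the wild-type replicates 1 to 3 read 210, 228 and 248. The heterozygous replicates read 122, 136 and 145. No heterozygous value came near the lowest wild-type value, and within each genotype replicate 1 was the lowest and replicate 3 the highest. The means were 229 ± 19.1 and 134 ± 11.7 (SD, n = 3 mice each), which puts heterozygous lenses at 58.8% of wild-type. Mice with the same replicate number gave 58.0%, 59.8% and 58.4%. The log2 difference was −0.77 ± 0.13 (standard error), with a 95% interval from −1.08 to −0.46. Of the 8865 probe sets with a median signal of at least 50, 14 had a lower difference. These values chose the gene and are no evidence apart from that choice. The paper also reports lower Camk1d RNA in heterozygous lenses by quantitative RT-PCR on different RNA preparations, which were not analysed here. In published data from homozygous mutant embryos, it lists Camk1d as changed in 3 regions of the telencephalon. On the arrays, marker genes of several cell types differed between the wild-type and heterozygous lens samples. Of the 14 retinal neuron markers, 13 had positive log2 differences (median 0.42), where 47.0% of all genes did. Neurod1, Stmn3 and Rcvrn, the last at background, were the 3 that were higher without overlap between genotypes. Of all probe sets, 2.65% had this pattern. Elavl4, an RNA-binding protein of neurons, was lower without overlap (71.8 ± 7.30 and 50.7 ± 3.31). All 8 endothelium markers had positive differences (median 0.48), with overlapping genotypes, and their sums were higher in each of the 3 same-numbered pairs. Of the lens markers, the summed fiber signal was lower in each pair, while its range overlapped between genotypes. Of the 8 measured fiber markers, 6 had negative and 2, Cryba1 and Crygs, positive log2 differences (median −0.07). Of the 5 epithelium markers, 4 had negative differences, and Gja1 had a positive difference. A single marker of each list was lower without overlap, where 3.53% of all probe sets had this pattern. For fiber it was Dnase2b, the nuclease that clears DNA from fiber cells (793 ± 156 and 554 ± 86.5). For epithelium it was Pdgfra, a growth factor receptor (618 ± 68.1 and 409 ± 20.1). The part of these cell types in the Camk1d difference was not tested.

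The second Camk1d probe set, 1426389_at, lay at background. It read 9.71, 12.0 and 11.7 in the wild-type replicates and 7.95, 9.43 and 11.0 in the heterozygous ones. The genotypes overlap, although each heterozygous mouse read lower than the wild-type mouse of the same number. Its log2 difference was −0.24 ± 0.16 (standard error), and it passed the background bound on 0 of 6 arrays.

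**Figure D2:**
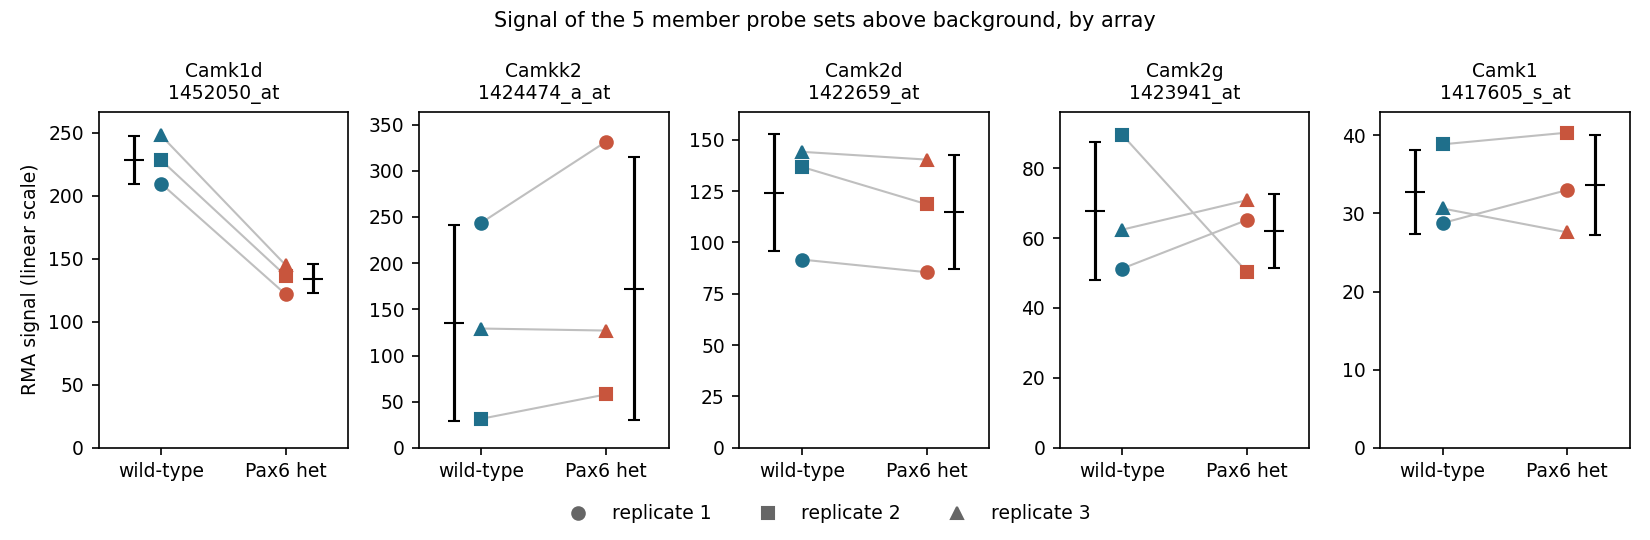
RMA signal (linear scale) of the 5 probe sets above background, for wild-type and Pax6 heterozygous lenses. Grey lines join samples of the same replicate number, and black bars give the mean and SD of 3 mice. The Camk1d values part into 210 to 248 and 122 to 145, whereas the genotypes overlap for Camkk2, Camk2d, Camk2g and Camk1.

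Pde1c, the phosphodiesterase that hydrolyses cAMP and cGMP with like affinity, was also listed as lower, at a signal close to background. The listed probe set, 1426036_a_at, read 14.8, 14.7 and 13.1 in the wild-type replicates 1 to 3. It read 8.97, 10.5 and 11.9 in the heterozygous replicates. The genotypes do not overlap, but the probe set passed the background bound only in wild-type replicates 1 and 2. The means were 14.2 ± 0.958 and 10.4 ± 1.46 (SD, n = 3 mice each), and the log2 difference was −0.45 ± 0.14 (standard error; 95% interval −0.80 to −0.10). RMA pulls ratios of such dim signals toward 1. The other Pde1c probe set, 1429643_a_at, is slightly brighter and does not separate the genotypes. It read 13.9, 12.0 and 15.3 in the wild-type and 10.8, 13.6 and 13.8 in the heterozygous replicates, with a log2 difference of −0.11 ± 0.16 (standard error). Replicate 2 was higher in the heterozygous mouse and the others lower.

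Camkk2, the kinase that acts on the type I and type IV enzymes, varied more between mice than between genotypes. Its probe set 1424474_a_at read 244, 31.5 and 129 in the wild-type replicates 1 to 3. It read 332, 57.9 and 127 in the heterozygous replicates. In both genotypes replicate 1 was far the highest and replicate 2 the lowest, and the highest of the 6 values was 10.5 times the lowest. The SD of the log2 signals within genotypes was 1.39, larger than in 99.8% of all probe sets. The log2 difference between genotypes was 0.43 ± 0.90 (standard error), with an interval from −1.72 to 2.59. Blocking on the replicate number brought the standard error to 0.18 (limma, adjusted p = 0.559). The heterozygous mouse stood at 136%, 184% and 98.3% of the wild-type mouse of its number. Leaving out a single mouse without the block, which breaks a pair, gave differences between −0.40 (without wild-type replicate 2) and 1.08 (without wild-type replicate 1). Camkk2 probe sets 1424475_at and 1424476_at read between 9.88 and 16.6 and passed the background bound on 2 and 0 of 6 arrays. In both of them, too, replicate 1 was the highest of its genotype, but at values near background.

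The summed markers of vessels, pigment cells, macrophages and mesenchyme were also highest in replicate 1 of both genotypes. Gene by gene, this held for 6 of 8 endothelium, 4 of 4 pigment cell, 5 of 8 macrophage and 5 of 8 mesenchyme and smooth muscle markers. All 8 endothelium markers were measured, with 5 above background on all arrays, and their summed signal was 1896, 834 and 784 in the wild-type replicates 1 to 3 and 3462, 1069 and 1039 in the heterozygous ones. The 4 measured pigment cell markers, all above background, summed to 1291, 571 and 514, and to 1329, 550 and 651. For macrophages, with 5 of 8 markers above background, the sums were 1398, 465 and 447, and 1527, 1139 and 260. Mesenchyme and smooth muscle markers, 5 of 8 above background, summed to 662, 289 and 502, and to 760, 304 and 206. Their part in the spread of Camkk2 was not tested.

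Camk2d and Camk2g, the type II kinases above background, had overlapping genotypes. Camk2d at 1422659_at read 91.6, 137 and 144 in the wild-type replicates 1 to 3 and 85.5, 119 and 140 in the heterozygous replicates. Each heterozygous mouse read a little below the wild-type mouse of its number, at 93.3%, 86.7% and 97.4%. The log2 difference was −0.11 ± 0.25 (standard error), and the 95% interval from −0.72 to 0.49, without a block, allows a change in either direction. Blocking on the replicate number brought the standard error to 0.098 (limma, adjusted p = 0.784). Camk2g at 1423941_at read 51.3, 89.5 and 62.4 in wild-type and 65.2, 50.3 and 70.8 in heterozygous lenses. Here the order of the replicates was not shared, and wild-type replicate 2 was the highest and heterozygous replicate 2 the lowest of the 6. The log2 difference was −0.10 ± 0.24 (standard error; interval −0.68 to 0.48). The second probe sets of both genes were near background. That of Camk2d, 1427763_a_at, read 9.01 to 9.50 in wild-type and 9.71 to 14.4 in heterozygous lenses.

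Camk1, the first of the type I kinases, read 28.8, 38.8 and 30.6 in the wild-type replicates and 33.0, 40.3 and 27.6 in the heterozygous replicates at 1417605_s_at. The genotypes overlap, replicate 2 was the highest in each, and the log2 difference was 0.03 ± 0.19 (standard error; interval −0.42 to 0.49). The suffix of this probe set marks probes that can match transcripts of more than one gene, so its signal is not certain to be that of Camk1 alone. The other Camk1 probe set, 1417604_at, read 8.23 to 16.0 over the 6 arrays.

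Of the 19 probe sets, 11 had a negative and 8 a positive log2 difference. The median difference of the 10 genes, each at its brightest probe set, was −0.04, and that of all 12393 genes was −0.01. The genotypes did not overlap, with heterozygous lower, in 2 probe sets, those of Camk1d and Pde1c that the study lists, where 3.53% of all probe sets had this pattern. With heterozygous higher there were 2, the dim 1427763_a_at of Camk2d and 1426167_a_at of Camk4 (11.5 to 12.6 in wild-type and 12.8 to 14.1 in heterozygous lenses), where the share was 2.65%. Among probe sets with a median of at least 50, 2.49% were lower without overlap, and of the 4 members in that range this was Camk1d alone. The heterozygous mouse was lower in 3 of 3 same-numbered pairs for 4 member probe sets, against 17.1% of all, and higher in 3 of 3 for 2, against 13.8%. No weight is placed on these counts, since the choice of genes used this contrast.

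By limma over all probe sets, 0 of the 19 passed an adjusted p of 0.05 (adjusted p = 1.00 for each), as did 0% of the 22626. At an unadjusted p under 0.05 there were 2 of the 19, the listed probe sets of Camk1d and Pde1c, where 1.99% of all (450) were found. The methods' t-test with adjustment also called 0 of 22626. Under a block for the replicate number, adjusted p was 0.233 for Camk1d and 0.458 for Pde1c.

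**Figure D3:**
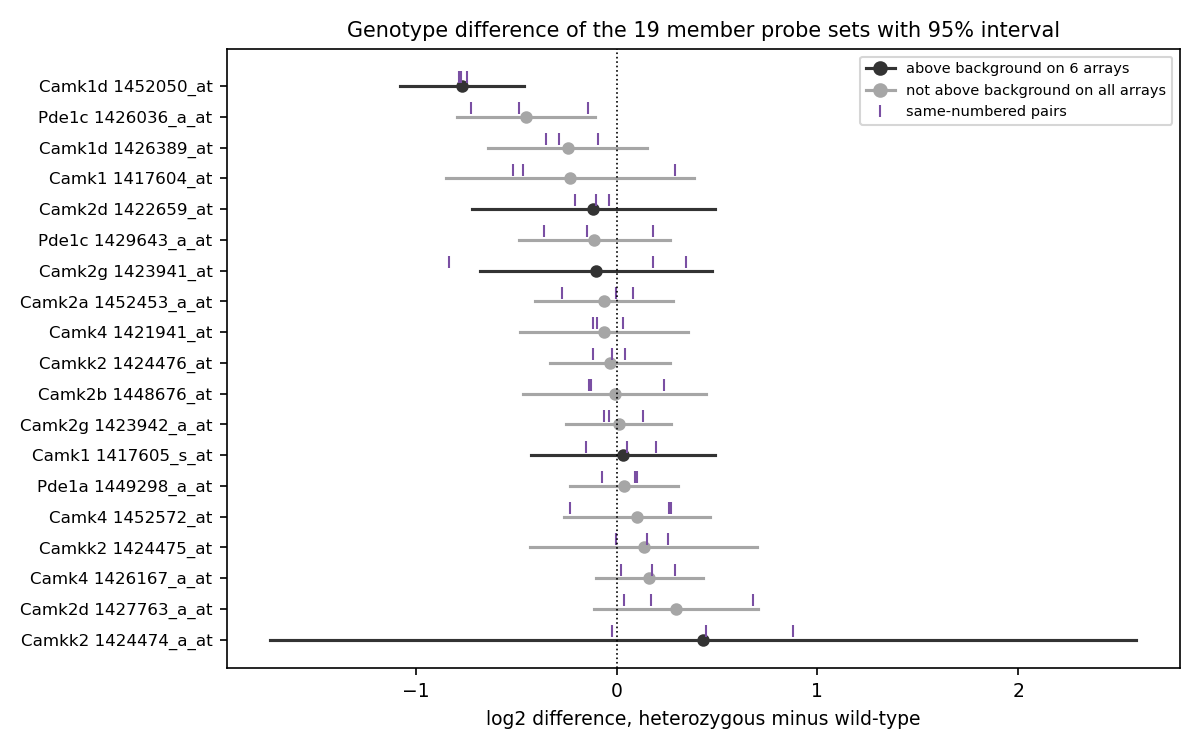
Log2 difference (heterozygous minus wild-type) of the 19 probe sets, as points with 95% intervals from limma; ticks above each line give the 3 same-numbered pairs. Dark points are the 5 probe sets above background on all arrays. Camk1d 1452050_at stands lowest at −0.77 with its 3 ticks close together, and Camkk2 1424474_a_at has the widest interval.

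Same-numbered mice deviated together for some of these genes. Camk2d lay 0.41 below its genotype mean in wild-type replicate 1 and 0.40 below it in heterozygous replicate 1, and 0.24 and 0.32 above it in the replicates 3. Camk1d followed the same order over a smaller range, from −0.12 to 0.12 in wild-type and from −0.14 to 0.11 in heterozygous lenses. Camkk2 lay at 1.29 and 1.30 in the replicates 1, at −1.66 and −1.22 in the replicates 2, and at 0.37 and −0.08 in the replicates 3. Camk2g did not follow a shared order, with 0.44 in wild-type replicate 2 and −0.29 in heterozygous replicate 2. What same-numbered mice share is not given in the sources used here.

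**Figure D4:**
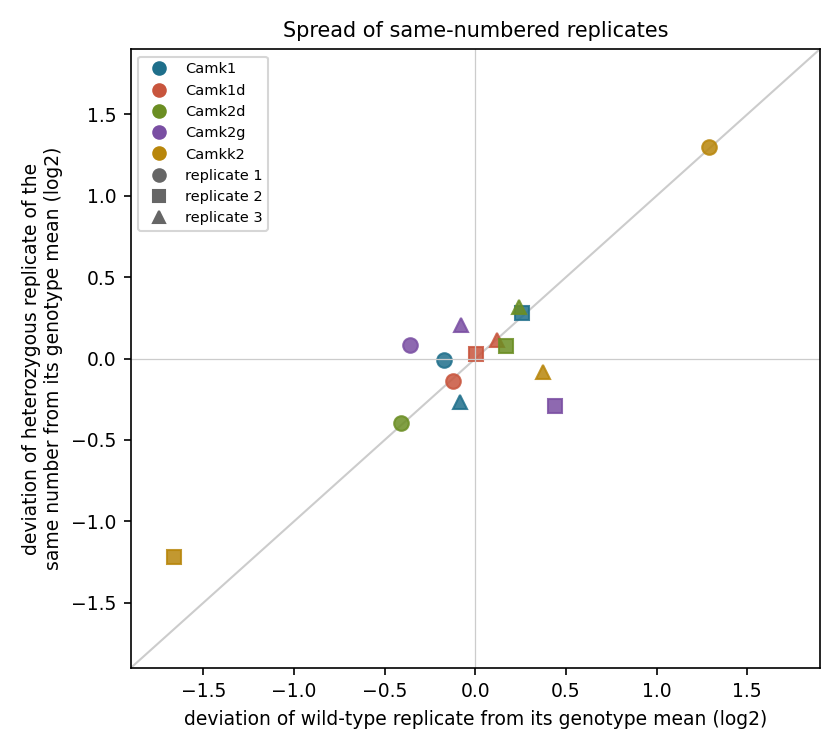
Deviation of each replicate from its genotype mean (log2), wild-type on the x axis and the heterozygous replicate of the same number on the y axis, for the 5 probe sets above background. Points on the diagonal deviate alike. Camkk2 spans −1.66 to 1.29 on the x axis and lies near the diagonal in replicate 1 and further from it in replicates 2 and 3. Camk2g replicate 2 also lies away from the diagonal.

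The genes whose signals ran most like Camk1d over the 6 arrays were Cipc, a repressor of the circadian clock, Folr1, a folate receptor, Ralgps2, an exchange factor for Ral, Fip1l1, a factor of mRNA polyadenylation, and Myo5b, a myosin motor. Their Pearson correlations with Camk1d on the log2 scale were 0.975 to 0.988, over 5548 genes with a median signal of at least 50. Folr1 read 370, 426 and 492 in wild-type and 245, 280 and 306 in heterozygous lenses, so that, as for Camk1d, heterozygous lenses were lower and replicate 3 was the highest in each genotype. For the listed Pde1c probe set the leading genes were Mafg, a small Maf factor, Rmdn1, Mterf2, B3gntl1 and Tubb4a, a beta-tubulin, with correlations of 0.933 to 0.969. Correlations above 0.95 were found for 10 genes with Camk1d and 4 with Pde1c. With Camkk2, a query added after its values were seen, there were 146, led by Eri1, Mthfd1 and Clip1. Mthfd1, an enzyme of folate metabolism, read 794, 278 and 527 in wild-type and 935, 393 and 540 in heterozygous lenses. With 6 arrays from 3 shared replicate numbers, such correlations are descriptions of these samples. The Camk1d and Pde1c probe sets were chosen for lower heterozygous signals, so the search favors genes that are also lower. The shared direction is therefore no separate finding.

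Relatives of the family and partners in the pathway were looked at as lists of 94 genes, of which 67 had a probe set of their own. Of these, 33 had positive and 34 negative log2 differences, with a median of −0.000237, against −0.01 for all genes. None passed the adjusted threshold by limma, and 1, Nfatc2, had an unadjusted p under 0.05, whereas 278 of 12393 genes (2.24%) did. Nfatc2, a transcription factor that calcineurin sends to the nucleus, read 29.7 ± 3.80 in wild-type lenses against 38.6 ± 2.38 with a single Pax6 copy (SD, n = 3 mice each). The genes for calmodulin itself were not analysed here.

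Among other calmodulin kinases and their regulators, 4 of 10 genes were measured, 2 above 0 and 2 below. Dclk1, a microtubule-binding kinase related to the family, read 496, 249 and 514 in wild-type and 614, 477 and 549 in heterozygous lenses at its brightest probe set, a log2 difference of 0.45 ± 0.30 (standard error). Of its 6 probe sets, 5 had positive differences. At 1424270_at, far above background, it read 309, 286 and 315 in wild-type and 418, 349 and 347 in heterozygous lenses, without overlap, with a log2 difference of 0.29 ± 0.13 (standard error). The one that the study lists, 1451917_a_at, lay at background with 9.87 ± 1.08 and 12.4 ± 0.936, and was chosen on these samples. The nearest relatives Camk1g (11.2 ± 1.01 and 10.2 ± 0.641) and Pnck (18.2 ± 0.434 and 18.5 ± 1.26) overlapped between genotypes. Both are type I kinases.

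Of the other phosphodiesterases, 10 of 15 were measured, 8 above and 2 below 0, with a median of 0.11. Pde1b, the remaining calcium-dependent member, read 19.7 ± 2.17 and 20.3 ± 4.94. The brightest were Pde8a (153 ± 25.5 and 173 ± 98.2) and Pde4b, both of which act on cAMP. Pde4b read 273, 38.4 and 104 in wild-type and 780, 63.1 and 124 in heterozygous lenses, with replicate 1 highest and replicate 2 lowest in both genotypes, the order seen for Camkk2. Of 16 measured cyclases and cyclic nucleotide kinases, 7 were above 0 with a median of −0.02. Prkaca, the catalytic subunit of protein kinase A, read 1649 ± 216 and 1596 ± 126, and Prkar1a, a regulatory subunit, 1109 ± 39.9 and 1170 ± 97.9.

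Calcineurin, the phosphatase that calmodulin activates, its regulators and the NFAT factors were all measured, 11 of 11, with 5 above 0 and a median of −0.10. Ppp3ca, a catalytic subunit, read 612 ± 119 and 568 ± 129, and Nfatc3 read 1017 ± 425 and 878 ± 257. Of 12 measured nuclear targets of calmodulin kinases, 5 were above 0, with a median of −0.05. Crebbp, the CREB-binding coactivator, read 391 ± 52.3 and 365 ± 92.9, and Mef2a, a MADS box factor, 214 ± 54.9 and 209 ± 43.0. Of 11 measured genes of calcium stores, entry and pumps, 5 were above 0. Atp2a2, the calcium pump SERCA2, read 5318 ± 875 and 5326 ± 832, a log2 difference of 0.00 ± 0.17 (standard error; interval −0.42 to 0.42), and Itpr2, a calcium release channel, 134 ± 67.9 and 144 ± 47.7. Of the 3 measured calmodulin-binding buffers, 1 was above 0. Pcp4, a small calmodulin-binding protein, read 5904 ± 872 and 5135 ± 661 and was lower in the heterozygous mouse of each pair, with overlapping genotypes. Gap43 read 35.3 ± 13.9 and 42.5 ± 10.2.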

How the data were processed

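The arrays measured RNA of 3 wild-type and 3 Pax6 heterozygous newborn lens samples. The authors amplified and biotin-labeled the RNA with the NuGEN Ovation system and made the deposited signal intensities by RMA, on the linear scale, with 1 array per mouse; the RMA version is not given in the sources used here. An array has no count or depth, so the number of mice limits the precision.

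Of 22690 probe sets, 64 Affymetrix controls were left out. Of the other 22626, 20380 were paired with a single gene by the platform annotation, 691 with several and 1555 with none, and 20351 matched the RefSeq table (GRCm38.p6) by Entrez number. Log2 signals were compared with limma 3.58.1 (lmFit, eBayes) in R 4.3.3 without a block, with Benjamini-Hochberg adjustment over all probe sets and a threshold of 0.05. The fit was tested on simulated data. Tables and figures were made in Python 3.11.15 with pandas 2.3.3 and matplotlib 3.10.9.

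The genes, lists and tests were chosen with earlier results of these data known. Text names all 10 genes, the probe set with the highest mean log2 signal standing for a gene, the 2 brightest genes of each pathway list, Camk1g, Pnck, Camkk1, Dclk1 and Pde1b (Camkk1 was not analysed here), and the 5 genes most correlated with the listed Camk1d and Pde1c probe sets; Camkk2 correlates and Nfatc2 were added after values were seen.

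Deviations from the genotype means correlated at 0.645, 0.734 and 0.604 between same-numbered samples, all above the bound of 0.1. The numbers were therefore taken to pair the samples. Between others the correlations were −0.0751 to −0.496. Deviations within a genotype cancel out, which pushes these correlations down, so they add no weight to the pairing.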

Additional observations from a re-analysis of the deposited data

How the results depend on the processing

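Over 223 recomputed differences of the 19 probe sets, 222 moved by less than the SD between replicates, and no adjusted p was under 0.05 (lowest 0.233). Of these, 25 changed sign, in 12 probe sets, all of them with differences not past the threshold. The methods' t-test, the trended prior, the replicate block and the signal bound of 50 leave a difference as it is. Those recomputations could not move it and are no sign of stability. Each probe set was held to its own SD, so Camkk2 1424474_a_at did not count as moved though it ran from −0.40 to 1.08. Leaving out each sample in turn moved Camk2g between −0.28 and 0.12, Camk2d between −0.32 and 0.08, Camk1 between −0.11 and 0.17, Pde1c 1429643_a_at between −0.20 and 0.00 and Camk1d 1426389_at between −0.36 and −0.13. The exception to the first count was the listed Camk1d probe set, at −0.51 when the signals of both its probe sets were averaged. Leaving out each sample in turn gave −0.83 to −0.70 for the listed Camk1d probe set, −0.55 to −0.34 for that of Pde1c, and 4 to 6 member probe sets without overlap, against 4 with all samples (an alternative added after seeing the data, as were those for the pathway lists). Of the members without overlap, 1 had a median signal of at least 50. The count of all probe sets past the adjusted threshold was 0 when any sample was left out, and 2 with the replicate block, those of Fgf15 and Commd9. At an unadjusted p under 0.05 it was 450, 315 to 598 when any sample was left out, 2042 with the replicate block and 125 among the 8865 probe sets with a median signal of at least 50. The methods' t-test called 665 at 0.05, 1327 at the threshold of the methods and 0 after adjustment, quantile normalization, median centring and a trended prior called 447 to 480 at 0.05, and all of these called 0 after adjustment. Pde1c is below that bound of 50 and has no value there. The block changed no call among the member probe sets. Medians of the pathway lists lay near 0 and some changed sign, such as that of calcineurin and NFAT genes, at 0.14 without wild-type replicate 3; the cause was not tested. Probe sets near background, all but 5 of the members, limit what can be seen of Camk2a, Camk2b, Camk4, Pde1a and Pde1c.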
